A study of Mus musculus with 4 samples.

Results

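The BAFF, APRIL and CD40 axis was followed through 7 genes of the lung of tumour-bearing mice. The members were taken by symbol from the 32285 genes of the deposited count matrices. The rule uses no measured value, though the axis was picked with earlier results of these data known. They are 3 ligands, Tnfsf13b (BAFF), Tnfsf13 (APRIL) and Cd40lg (CD40 ligand), and 4 receptors, Tnfrsf13b (TACI), Tnfrsf13c (BAFF receptor), Tnfrsf17 (BCMA) and Cd40. All 7 were measured in all 4 mice.

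The mice were female MMTV-PyMT animals on the FVB/NJ strain, in which the mammary tumour virus promoter drives the polyoma middle T antigen and mammary tumours form. Every mouse, controls included, carried this transgene. At 8 weeks of age each mouse received a pellet, which was a placebo in 2 mice and held 5 mg tamoxifen with release over 60 days in the other 2. Lungs were taken at 13 weeks of age, after 5 weeks of the pellet, perfused and digested, and each mouse gave 1 library of 5' single-cell RNA-seq. The mouse is the replicate, so every test has 2 samples against 2, and p-values measure the spread between these 4 mice.

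BAFF and APRIL are trimeric ligands of the tumour necrosis factor family. BAFF binds the BAFF receptor, TACI and BCMA and keeps mature B cells alive through the non-canonical NF-kB pathway, whereas APRIL binds TACI and BCMA and is best known for the survival of plasma cells. CD40 ligand on activated helper T cells engages CD40 on B cells, dendritic cells and macrophages. Adaptors of the TRAF family carry the signals of all these receptors. In the lung, BAFF and APRIL are known products of myeloid and stromal cells.

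The deposited libraries held 7272 to 10168 barcodes and 32646505 to 37285982 unique molecular identifiers (UMIs, 1 per captured RNA molecule). After filters on genes, mitochondrial UMIs and doublets 28477 cells remained, 6676 to 7480 per mouse, with a median of 2626 to 4066 UMIs. Pairs of libraries shared 77 to 128 barcodes. Cells were clustered without the 7 members and named from marker lists, so the naming did not use the genes described here. Names carry "-like" because they rest on markers. In B cell-like cells the 11 B cell markers summed to 12277 to 13836 CPM, in which the UMIs of a class in a mouse are scaled to a fixed total, against 7.37 to 17.2 CPM in neutrophil-like cells. The plasma cell-like class had 29 cells in all. In placebo mouse 2 it had 2 cells whose 9 markers summed to 415 CPM, against 24301 to 58419 CPM in the other mice. Its label was not borne out in placebo mouse 2. In the other mice the class also held the 11 B cell markers at 11459 to 12524 CPM, so its label is uncertain there as well. Of the 33 named classes, 22 had at least 20 cells in every mouse and were tested, and 1926 cells stayed unnamed.

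The mouse genes lie on chromosomes 8 (Tnfsf13b, 10006467 to 10039072), 11 (Tnfsf13, 69682846 to 69685784, and Tnfrsf13b, 61126755 to 61149372), 15 (Tnfrsf13c, 82221743 to 82224369), 16 (Tnfrsf17, 11313812 to 11320074), 2 (Cd40, 165055627 to 165072948) and X (Cd40lg, 57212143 to 57224042), in GRCm38 coordinates of the whole gene. All 7 are protein-coding. Tnfsf13 shares its locus with the antisense gene Tnfsf13os, which the files count separately, and with the read-through transcript Tnfsfm13, which the files do not list, so its counts are uncertain to the extent that reads were split among them.

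The 3 receptors of BAFF differed in the cells that held their RNA, as described below, and the 250 bases before their start sites are shown because each receptor had its highest level in a different class. The sequences are from RefSeq on GRCm38.p6, read 5′ to 3′ on the gene's strand, and capitals mark matches to the motifs searched. Windows were found for 5 of the 7 members. Motifs were searched on both strands: the PU.1 core GAGGAA, the octamer ATTTGCAT, the EBF1 core CCCNNGGG and an NF-kB pattern of 3 G, 5 bases of any kind and 2 C.
Tnfrsf13c, chr15:82224381-82224630, minus strand: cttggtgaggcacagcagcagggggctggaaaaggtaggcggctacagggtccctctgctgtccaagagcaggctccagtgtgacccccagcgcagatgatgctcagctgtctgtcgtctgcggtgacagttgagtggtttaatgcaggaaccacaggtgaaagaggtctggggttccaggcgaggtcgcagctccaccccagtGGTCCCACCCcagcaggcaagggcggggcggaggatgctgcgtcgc
Tnfrsf13b, chr11:61126505-61126754, plus strand: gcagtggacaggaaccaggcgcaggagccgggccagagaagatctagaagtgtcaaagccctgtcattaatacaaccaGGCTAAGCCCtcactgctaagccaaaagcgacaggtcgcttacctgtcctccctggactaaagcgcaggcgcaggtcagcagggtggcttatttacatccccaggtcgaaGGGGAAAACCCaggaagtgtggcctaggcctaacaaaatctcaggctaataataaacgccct
Tnfrsf17, chr16:11313559-11313808, plus strand: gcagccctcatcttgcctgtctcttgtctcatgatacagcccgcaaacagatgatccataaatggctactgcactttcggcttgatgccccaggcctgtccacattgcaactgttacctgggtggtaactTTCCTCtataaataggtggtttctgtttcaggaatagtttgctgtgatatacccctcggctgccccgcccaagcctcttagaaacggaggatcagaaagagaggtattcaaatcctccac
The Tnfrsf13c window held 1 NF-kB match, GGTCCCACCC on the opposite strand, that begins 46 bases before the start site. The Tnfrsf13b window held 3 NF-kB matches, of which GGGGAAAACC and GGGAAAACCC overlap by all but 1 base. The Tnfrsf17 window held 1 PU.1 core, as TTCCTC on the opposite strand, 120 bases before the start site. Among 32851 windows of the same length, 45.8% held the NF-kB pattern, 23.3% the PU.1 core, 11.8% the EBF1 core and 1.60% the octamer. A match describes letters only, and the absence of an octamer or EBF1 core from these windows says nothing of the factors.

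**Figure D1:**
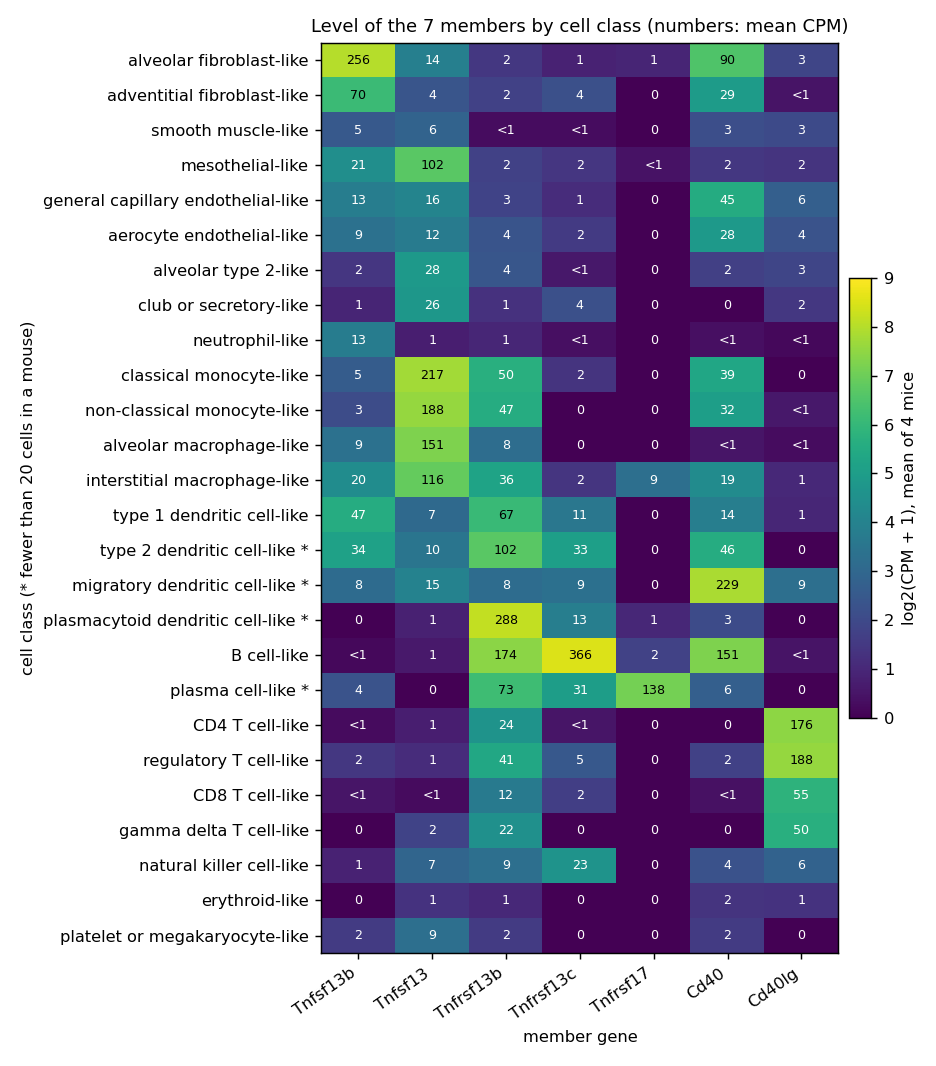
Level of each member (columns) in each tested cell class (rows), as the mean CPM of 4 mice, with the value printed in each field and a logarithmic colour scale. Tnfsf13b has its highest field in alveolar fibroblast-like cells (256 CPM), Tnfsf13 in classical monocyte-like cells (217 CPM), Tnfrsf13c in B cell-like cells (366 CPM) and Cd40lg in regulatory T cell-like cells (188 CPM).

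The RNA for BAFF came mainly from fibroblasts. Alveolar fibroblast-like cells held 59.0% of all Tnfsf13b UMIs, and their level was 301 and 218 CPM in the placebo mice and 275 and 231 CPM in the tamoxifen mice. The groups overlapped, with the highest and the lowest mouse both on placebo. At least 1 Tnfsf13b UMI was found in 836 of the 1120 alveolar fibroblast-like cells (74.6%, exact 95% interval 72.0 to 77.2%, counting error only). In B cell-like cells, which respond to BAFF, 1 of 1868 cells had a UMI, and in CD4 T cell-like cells 1 of 2040. The fold change in alveolar fibroblast-like cells, tamoxifen over placebo, was -0.05 ± 0.18 on the log2 scale (SE, edgeR, adjusted p = 1.00).

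The alveolar fibroblast-like class was made mainly of 2 clusters that differed in BAFF and, in the other direction, in CD40. A cluster of 620 cells led by Mgp, Sod3 and Col3a1 held Tnfsf13b at 333 and 244 CPM in the placebo mice and 326 and 274 CPM in the tamoxifen mice. A cluster of 441 cells led by Sod3, Mfap4 and Inmt held it at 261 and 187 CPM and at 197 and 148 CPM. The first cluster was higher in 4 of 4 mice. Cd40 went the other way in the same cells, at 74.4, 65.1, 59.7 and 63.4 CPM in the first cluster and at 155, 104, 150 and 115 CPM in the second, in the same order of mice. These clusters were drawn from the expression of other genes in the same cells, so the differences are descriptions without a test.

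After alveolar fibroblast-like cells, the order of Tnfsf13b levels was adventitial fibroblast-like (70.1 ± 28.1 CPM, SD, n = 4 mice) and type 1 dendritic cell-like (47.1 ± 9.59), whose ranges overlapped, and then mesothelial-like (20.9 ± 3.40) and interstitial macrophage-like cells (19.8 ± 4.12), which differed by less than their spread. Alveolar fibroblast-like cells stood above all of these in every mouse, since their lowest mouse had 218 CPM and the highest adventitial value was 111 CPM. Type 1 dendritic cells, the cross-presenting dendritic cells, had 38.2 and 40.4 CPM in the placebo mice and 51.1 and 58.8 CPM in the tamoxifen mice. Both tamoxifen mice were above both placebo mice. The log2 fold change was 0.51 ± 0.21 with edgeR, and it did not pass the adjusted threshold (adjusted p = 1.00). Of the 7664 genes tested in that class 0.0 percent were called, and 29.0 percent had groups apart.

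Neutrophil-like cells, the largest class with 12075 cells, had a low level but the second largest part of the BAFF RNA, 13.6% of its UMIs. Their level was 12.3 and 10.5 CPM with placebo and 11.03 and 17.7 CPM with tamoxifen. A UMI was found in 480 cells (3.98%, exact 95% interval 3.63 to 4.34%), against 0.0490% of CD4 T cell-like cells, at median depths of 2821 and 2645 UMIs. Thinned to 1000 UMIs per cell, with shallower cells left out, the shares were 1.19% of 11635 neutrophil-like and 0% of 1800 CD4 T cell-like cells. The share in neutrophil-like cells was thus above that in T cells of like depth. Tamoxifen mouse 2 was the highest, placebo mouse 2 the lowest, and the groups overlapped (log2 fold change 0.45 ± 0.25, edgeR adjusted p = 0.999).

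Across the 22 tested class means, the genes whose log2 level followed Tnfsf13b most closely were Exoc3l4 (Pearson r = 0.91), Slc27a3 (0.87) and Gfra2 (0.84), among 13243 genes. These correlations, and those given for the other members, are descriptions over classes that share the same 4 libraries.

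The RNA for APRIL was myeloid, with a mesothelial source beside it. Classical monocyte-like cells, the Ly6c2-high monocytes of the blood, had the highest mean over the 4 mice, at 254 and 217 CPM in the placebo mice and 208 and 188 CPM in the tamoxifen mice. Both tamoxifen mice were below both placebo mice, and the log2 fold change was -0.25 ± 0.20 (edgeR, adjusted p = 0.994), in a class where 32.9 percent of genes had groups apart. Non-classical monocyte-like cells, which patrol the vessel wall, had 177 and 150 CPM with placebo and 217 and 206 CPM with tamoxifen. Here both tamoxifen mice were above both placebo mice, and in the tamoxifen mice this class was the higher of the monocyte classes. The log2 fold change was 0.42 ± 0.19 (edgeR, adjusted p = 0.917, with 0.0174 percent of 5742 genes called in that class and 35.1 percent apart).

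Alveolar macrophage-like cells, which live in the airspace, had 171 and 178 CPM in the placebo mice and 127 and 128 CPM in the tamoxifen mice. The groups did not overlap, and the log2 fold change was -0.41 ± 0.17 (edgeR, adjusted p = 0.999, with 0.0 percent of 6078 genes called and 32.3 percent apart). The change in non-classical monocyte-like cells exceeded that in alveolar macrophage-like cells by 0.86 ± 0.26 on the log2 scale, and that in classical monocyte-like cells by 0.68 ± 0.26. Neither difference passed when adjusted over all genes in the joint fit (edgeR, adjusted p = 0.460 over 7246 genes and 0.779 over 5203). These are 2 of 8 pairs of classes compared over the members, all picked because the groups lay apart in opposite directions, so the differences describe that choice. None passed.

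Interstitial macrophage-like cells, the macrophages of the tissue and vessel sheaths, held 27.3% of Tnfsf13 UMIs. Their level was 116 and 94.1 CPM with placebo and 146 and 106 CPM with tamoxifen, and the groups overlapped (log2 fold change 0.32 ± 0.19, edgeR adjusted p = 0.887). Inside the class the gene was uneven. The cluster led by Retnla, Fcna and Prg4, which numbered 40 and 9 cells with placebo against 79 and 69 cells with tamoxifen, held Tnfsf13 at 246 and 245 CPM and at 234 and 210 CPM, whereas the larger cluster of 645 cells held it at 78.3 and 78.9 CPM and at 73.6 and 54.5 CPM. In both clusters both tamoxifen mice were below both placebo mice. Without the Prg4 cluster, an alternative chosen after the data were seen, the log2 fold change of the class was -0.34, so the sign in the whole class depended on that cluster.

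Mesothelial-like cells, the lining of the lung surface, held 17.3% of Tnfsf13 UMIs at 121 and 99.4 CPM in the placebo mice and 85.9 and 101 CPM in the tamoxifen mice, with overlap (log2 fold change -0.25 ± 0.19, edgeR adjusted p = 0.924), in a class where 0.185 percent of genes were called and 35.5 percent had groups apart. Over the 4 mice the levels ran from 217 ± 27.8 CPM (SD) in classical and 188 ± 30.3 in non-classical monocyte-like cells to 151 ± 27.5 in alveolar macrophage-like, 116 ± 22.3 in interstitial macrophage-like and 102 ± 14.6 in mesothelial-like cells. Each neighbour pair in this order had overlapping ranges. A wide gap came next, since the following named class, alveolar type 2-like cells, had 28.0 ± 6.11 CPM and a highest mouse at 34.6, under the lowest mesothelial mouse. Of classical monocyte-like cells 57.1% had a UMI, as did 0.147% of CD4 T cell-like and 0.182% of neutrophil-like cells. Genes with the most similar class means were Tmem51 (r = 0.86), Lrmda (0.85) and Guca1a (0.83).

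**Figure D2:**
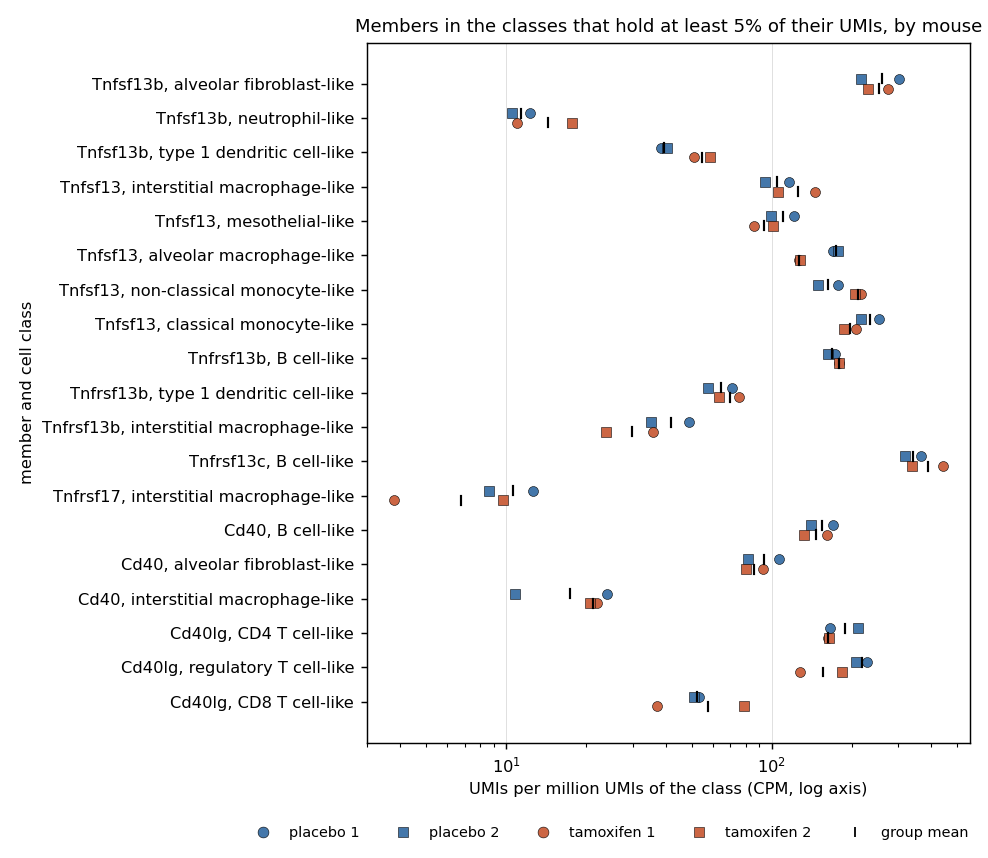
CPM of each member in the classes that hold at least 5% of its UMIs, with 1 point per mouse (placebo and tamoxifen in separate colours) and a bar at the mean of each group. The groups are apart for Tnfsf13 in both monocyte classes and in alveolar macrophage-like cells and overlap for Tnfsf13b in alveolar fibroblast-like cells.

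The BAFF receptor, which gives mature B cells their survival signal, was a B cell gene in this lung. B cell-like cells held 89.2% of Tnfrsf13c UMIs, at 366 and 317 CPM in the placebo mice and 442 and 337 CPM in the tamoxifen mice. Tamoxifen mouse 1 was the highest and placebo mouse 2 the lowest, and the groups overlapped (log2 fold change 0.27 ± 0.17, edgeR adjusted p = 0.968). A UMI was found in 1241 of 1868 B cell-like cells (66.4%), in 2 of 2040 CD4 T cell-like cells and in 11 of 12075 neutrophil-like cells. No other named class had a mean over 33.0 CPM.

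Within the B cell-like class, the cluster of 1187 cells led by Cd79a, Cd79b and Ms4a1 held Tnfrsf13c at 396 and 365 CPM with placebo and 515 and 413 CPM with tamoxifen. The cluster of 563 cells, whose leading genes include the plasma cell and marginal zone gene Mzb1, held it at 336 and 221 CPM and at 321 and 298 CPM. The first cluster was higher in 4 of 4 mice, and the same order held for Cd40, at 197, 168, 186 and 178 CPM against 133, 96.5, 130 and 111 CPM. Tnfrsf13b was close to equal in the 2 clusters, at 176, 176, 189 and 178 CPM against 172, 145, 172 and 189 CPM. The genes whose class means followed Tnfrsf13c were Bfsp2 (r = 0.93), Ighv1-53 (0.88) and Ell3 (0.88).

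TACI, the receptor shared by BAFF and APRIL, was found in more kinds of cell. Plasmacytoid dendritic cell-like cells, the interferon-producing cells that share part of the B cell programme, had the highest level, 307 and 252 CPM in the placebo mice and 323 and 271 CPM in the tamoxifen mice. They had 14 to 55 cells per mouse and were too few to test. A UMI was found in 106 of these 132 cells (80.3%). Tnfrsf13c stood at 13.3 ± 5.77 CPM (SD, n = 4 mice) in the same cells and Cd40 was found in 3 of them, while the 11 B cell markers, some of which these cells share, summed to 2600 to 3472 CPM with none at 0.

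B cell-like cells held 43.2% of Tnfrsf13b UMIs, at 173 and 164 CPM in the placebo mice and 178.96 and 178.92 CPM in the tamoxifen mice. Both tamoxifen mice were above both placebo mice by a small margin (log2 fold change 0.17 ± 0.16, edgeR adjusted p = 0.969, with 35.6 percent of genes apart in that class), and the sign turned when every mouse was thinned to the same number of B cell-like cells (-0.13). Type 2 dendritic cell-like cells had 102 ± 53.7 CPM (SD, n = 4 mice) and as few as 7 cells in a mouse. Type 1 dendritic cell-like cells had 71.1 and 57.7 CPM with placebo and 75.3 and 63.6 CPM with tamoxifen, and the groups overlapped (0.11 ± 0.21, adjusted p = 1.00).

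Interstitial macrophage-like cells had Tnfrsf13b at 48.7 and 35.2 CPM with placebo and 35.8 and 23.8 CPM with tamoxifen, with overlap (log2 fold change -0.44 ± 0.25, edgeR adjusted p = 0.882). In the ranking of levels over the 4 mice, plasmacytoid dendritic cell-like cells (288 ± 32.4 CPM) and B cell-like cells (174 ± 7.23) stood apart from each other in every mouse, while classical monocyte-like (50.2 ± 28.6), non-classical monocyte-like (46.9 ± 12.8), regulatory T cell-like (40.7 ± 13.3) and interstitial macrophage-like cells (35.9 ± 10.2) had overlapping ranges. T cells also held the gene. A UMI was found in 5.98% of CD4 T cell-like and 14.1% of regulatory T cell-like cells, against 0.290% of neutrophil-like cells, at median depths of 2645, 3107 and 2821 UMIs. The most similar class means were those of A630001G21Rik (r = 0.89), Slx4ip (0.89) and Map4k1 (0.88).

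Tnfrsf13c, Tnfrsf13b and Cd40 were found in 1241, 790 and 797 of the B cell-like cells, and their overlap was counted. Whether the overlap exceeds what these counts alone would give was not tested. Of 1868 B cell-like cells, 1571 had a UMI of Tnfrsf13c, Tnfrsf13b or Cd40, 591 had both Tnfrsf13c and Tnfrsf13b, 576 had both Tnfrsf13c and Cd40, and 315 had all 3. These counts depend on depth, which was a median of 3025 UMIs per cell in this class, so a cell without a UMI may still express the gene.

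BCMA, the receptor that supports long-lived plasma cells, was rare, with 152 UMIs in all kept cells. Plasma cell-like cells held 55 of them, in 9 of 29 cells, at 366 CPM in placebo mouse 1 (13 cells), 0 in placebo mouse 2 (2 cells), and 89.8 and 94.3 CPM in the tamoxifen mice (8 and 6 cells). All 9 cells with Tnfrsf17 had Jchain, the joining chain of secreted antibodies, and their median depth was 19099 UMIs, while 3 of the 20 without Tnfrsf17 had Jchain, at a median of 1850 UMIs. The class was too small to test.

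More Tnfrsf17 UMIs, 67 in 59 cells, came from interstitial macrophage-like cells than from the plasma cell-like class. The 59 cells were 6.41% of 920 (exact 95% interval 4.92 to 8.19%), and no cell had more than 3 of these UMIs. None of the 59 had a Jchain UMI, all 59 had a UMI of a C1q gene, and 15.3% had a UMI of Cd79a, Cd79b or Ms4a1, against 10.3% of the 861 without Tnfrsf17. Type 1 dendritic cell-like cells, which were deeper (median 11575 against 7283 UMIs), had 0 of 408 cells with a UMI, which allows a share of up to 0.735%, and alveolar macrophage-like cells had 0 of 1228, which allows up to 0.244%.

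The level of Tnfrsf17 in interstitial macrophage-like cells was 12.6 and 8.62 CPM in the placebo mice and 3.79 and 9.74 CPM in the tamoxifen mice, from 21, 12, 9 and 25 UMIs. Tamoxifen mouse 1 was the lowest and the groups overlapped (log2 fold change -0.57 ± 0.51, edgeR adjusted p = 0.951). The value rested on single mice, since it was -0.04 without tamoxifen mouse 1 and -1.44 without tamoxifen mouse 2. The larger cluster of 645 cells held 55 of the 67 UMIs. In B cell-like cells 4 of 1868 cells held 18 UMIs, and all 4 had Jchain. A single alveolar fibroblast-like cell held 6 UMIs of Tnfrsf17 together with 791 of Jchain among 31764 UMIs.

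CD40, the costimulatory receptor of antigen-presenting cells, was found in B cells and in stroma. Migratory dendritic cell-like cells, which carry antigen to lymph nodes, had 305 and 80.9 CPM with placebo and 163 and 366 CPM with tamoxifen, from 42 cells in all, too few to test. B cell-like cells held 39.2% of Cd40 UMIs, at 170 and 141 CPM in the placebo mice and 162 and 132 CPM in the tamoxifen mice. The groups overlapped almost fully (log2 fold change 0.00 ± 0.17, edgeR adjusted p = 1.00).

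Alveolar fibroblast-like cells held another 27.8% of Cd40 UMIs, at 106 and 81.2 CPM with placebo and 92.5 and 79.8 CPM with tamoxifen, with overlap (log2 fold change -0.14 ± 0.18, edgeR adjusted p = 1.00). In this class 46.2% of cells had a UMI, against 0 of 2040 CD4 T cell-like cells, which allows up to 0.147%, and 0.116% of neutrophil-like cells. Interstitial macrophage-like cells held 5.54% of Cd40 UMIs at 24.0, 10.8, 21.9 and 20.6 CPM (placebo mice first), with overlap (0.33 ± 0.34, adjusted p = 0.952). General capillary endothelial-like cells, a vascular source, had 53.2, 30.7, 48.5 and 48.9 CPM in the same order. B cell-like (151 ± 17.6 CPM, SD, n = 4 mice) and alveolar fibroblast-like cells (90.0 ± 12.3) did not overlap in any mouse, while general capillary endothelial-like (45.3 ± 9.99), classical monocyte-like (38.9 ± 12.4) and non-classical monocyte-like cells (31.9 ± 18.0) did. The class means most like those of Cd40 belonged to Tcf4 (r = 0.84), Snx8 (0.82) and Fam43a (0.79).

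CD40 ligand, the helper signal to CD40, was confined largely to T cells. CD4 T cell-like cells held 61.2% of Cd40lg UMIs, at 166 and 212 CPM in the placebo mice and 163 and 165 CPM in the tamoxifen mice. Both tamoxifen mice lay below both placebo mice, with 165.8 and 164.8 CPM in the nearest pair (log2 fold change -0.19 ± 0.16, edgeR adjusted p = 0.999, with 30.0 percent of genes apart in the class). Regulatory T cell-like cells, the Foxp3 lineage, had 230 and 209 CPM with placebo and 128 and 185 CPM with tamoxifen, again without overlap (-0.50 ± 0.25, adjusted p = 1.00, with 31.3 percent of genes apart). When each cell was instead assigned singly by its own marker score, the log2 fold change in regulatory T cell-like cells was 0.13.

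CD8 T cell-like cells had Cd40lg at 53.3 and 51.2 CPM with placebo and 37.1 and 78.6 CPM with tamoxifen, so the tamoxifen mice lay on either side of the placebo mice (log2 fold change 0.06 ± 0.34, edgeR adjusted p = 1.00). Regulatory (188 ± 44.0 CPM, SD, n = 4 mice) and CD4 T cell-like cells (176 ± 23.7) differed by less than their spread, and both were above CD8 T cell-like cells (55.1 ± 17.3) in every mouse. The gene was found in 28.9% of CD4 T cell-like cells, 10.9% of CD8 T cell-like cells and 0.161% of B cell-like cells, at median depths of 2645, 3223 and 3025 UMIs. The closest genes by class mean were the T cell genes Cd3e, Bcl11b and Cd3g (r = 0.94 for each).

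Within CD4 T cell-like cells the Cd40lg level was higher in 2 small clusters, although the main cluster of 1195 cells gave 522 of the 993 UMIs of the class. A CD4 T cell-like cluster of 43 cells led by Cxcr6 and Icos, genes of tissue-resident and helper T cells, held it at 423 and 896 CPM with placebo and 544 and 593 CPM with tamoxifen, and one of 34 cells held it at 231 and 613 CPM and at 772 and 525 CPM. The small clusters gave 121 and 100 UMIs, and the main cluster had 159, 149, 154 and 120 CPM. Cd40lg itself was among the 10 leading genes of both small clusters, though it was left out of the clustering. Gamma delta T cell-like cells had 13 and 3 UMIs with placebo but 1 UMI in each tamoxifen mouse. All came from a cluster of 31 cells, to which the placebo mice gave 10 and 3 cells and each tamoxifen mouse 9. These counts were under the filter on low values, and the gene was called there in a fit without that filter and in no other. That fit called 77 genes up and 4 down among 10929 in the class.

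Across all classes, tamoxifen against placebo gave no member call. The 7 members in 22 classes make 154 pairs, of which 37 passed the filter on low counts, and 0 of the 37 were called, with adjusted p from 0.882 to 1.00 by edgeR. DESeq2 called 0 as well. Over all genes of the tested classes 0.0545 percent of tests were called. By class the share was 0.0207 percent in interstitial macrophage-like, 0.185 in mesothelial-like, 0.0174 in non-classical monocyte-like, 0.0223 in alveolar type 2-like, 0.0159 in smooth muscle-like, 0.0398 in club or secretory cell-like, 0.504 in natural killer cell-like and 1.94 in gamma delta T cell-like cells, and 0.0 percent in the others. At an unadjusted p under 0.05 there were 3 of the 37 pairs, from 2 members: Tnfsf13b in type 1 dendritic cell-like and Tnfsf13 in non-classical monocyte-like and alveolar macrophage-like cells, against 3.86 percent of all genes. Both tamoxifen mice were above both placebo mice in 5 pairs and below in 6, and the share of all genes apart in either direction was 32.5 percent, so 11 of 37 is near the background. The log2 fold changes ran from -0.57 to 0.71.

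Of the 37 pairs, 19 lay in classes that hold at least 5% of a member's UMIs, and those are the pairs given above. The other 18 had log2 fold changes from -0.48 to 0.71 with adjusted p from 0.952 to 1.00, and 14 of them overlapped. At the upper end, Tnfsf13 in club or secretory cell-like cells had 6, 6, 13 and 16 UMIs, or 24.1, 15.7, 37.5 and 28.4 CPM (placebo mice first). In general capillary endothelial-like cells it had 9, 8, 10 and 7 UMIs, or 12.6, 10.2, 15.2 and 24.4 CPM. By CPM, though not by UMIs in the capillary class, its tamoxifen mice were above the placebo mice in both. In these classes 22.7 and 31.2 percent of genes had groups apart. At the lower end, Tnfrsf13b in non-classical monocyte-like cells had 25, 21, 19 and 30 UMIs, or 49.8 and 62.9 CPM with placebo and 32.5 and 42.4 CPM with tamoxifen (-0.48 ± 0.32). In CD4 T cell-like cells it had 23.8 and 28.0 CPM against 23.3 and 19.6 CPM (-0.22 ± 0.27), also with both tamoxifen mice below.

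**Figure D3:**
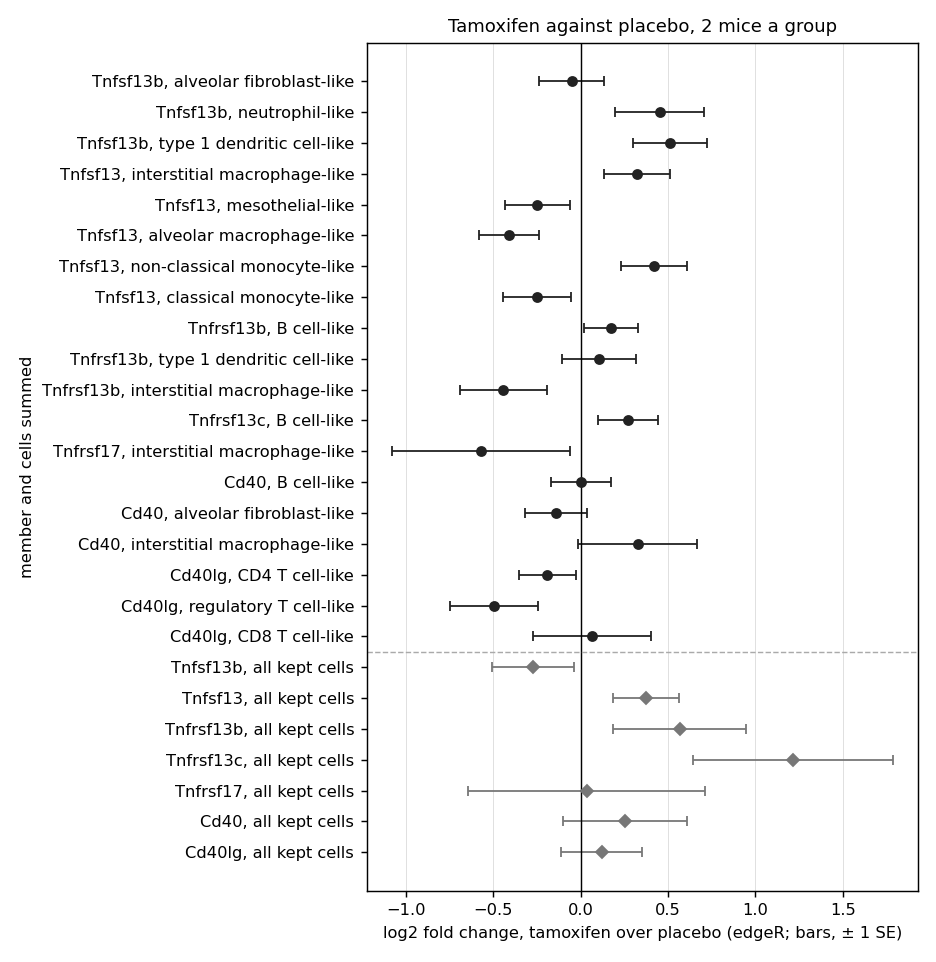
Log2 fold change, tamoxifen over placebo, with its standard error (edgeR, 2 mice a group), for the 19 pairs of member and class above the dashed line and for the 7 members over all kept cells below it. The pairs above the line lie between -0.57 and 0.51, and the value farthest from 0 is Tnfrsf13c over all kept cells, at 1.22.

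Summed over all kept cells of a mouse, no member passed the test. Tnfrsf13c stood at 25.1 and 7.06 CPM in the placebo mice and 53.5 and 18.6 CPM in the tamoxifen mice, in the same order as the share of B cell-like cells, which was 7.86% and 2.04% with placebo, against 12.4% and 3.99% with tamoxifen. The mean share was 4.95 ± 4.12% in placebo mice and 8.17 ± 5.91% in tamoxifen mice (SD, n = 2), and an exact two-sided permutation test gave p = 0.667, where 0.333 is the smallest p that 2 mice against 2 allow. The log2 fold change of Tnfrsf13c was 1.22 ± 0.57 (edgeR, adjusted p = 1.00). Without the B cell-like and plasma cell-like cells its levels were 4.96, 0.836, 3.66 and 2.42 CPM and the log2 fold change was 0.19 ± 0.63.

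Placebo mouse 2 had the lowest library level of all 7 members, for example 10.5 CPM of Tnfrsf13b and 11.9 CPM of Cd40, and also the largest share of neutrophil-like cells, 59.3% against 32.8 to 42.3% in the other mice. Which of these shares sets which library level was not tested beyond leaving out the B cell-like cells. Tnfsf13b had 44.9 and 23.7 CPM with placebo and 26.3 and 29.5 CPM with tamoxifen (log2 fold change -0.27 ± 0.24), and Cd40lg 16.8, 8.47, 14.3 and 12.8 CPM (0.12 ± 0.23). Tnfsf13 had 29.3 and 19.0 CPM with placebo and 31.33 CPM in each tamoxifen mouse (0.37 ± 0.19) and was the 1 member of 7 whose groups did not overlap, where 12 percent of 16164 genes were apart. None of the 7 passed in edgeR (adjusted p = 1.00, with 0.0 percent of genes called). Leaving out 1 mouse moved the log2 fold change of Tnfrsf13c to 2.01 (without placebo mouse 1), 0.68 (placebo mouse 2), 0.39 (tamoxifen mouse 1) or 1.71 (tamoxifen mouse 2). In these fits the lone mouse of a group is assumed to vary like the others.

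**Figure D4:**
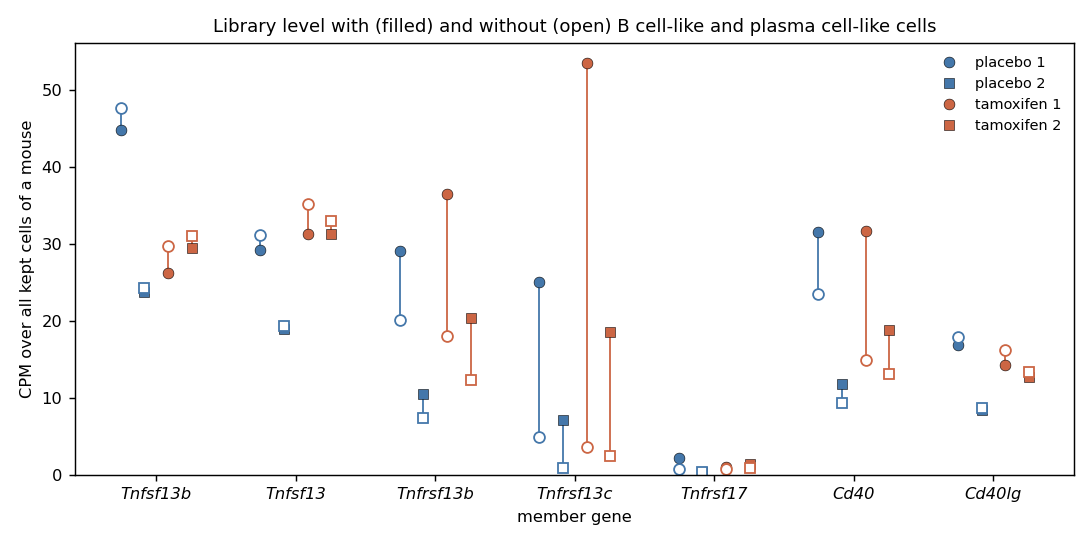
Level of each member in each mouse (CPM), as a filled point over all kept cells. An open point, joined to it by a line, gives the level without B cell-like and plasma cell-like cells. The filled points of Tnfrsf13c run from 7.06 to 53.5 CPM and its open points from 0.836 to 4.96 CPM. The filled points take the same order of mice as the B cell-like share (2.04% to 12.4%), which is not drawn.

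The genes around the axis were followed as 5 lists of 69 genes in all, covering ligand processing and binding, receptor signalling, B cell survival and activation targets, plasma cell genes, and the T helper partners of CD40 ligand. In the 22 classes these gave 731 tests that passed the filter, of which 1 rose and 1 fell. An unadjusted p under 0.05 occurred in 7.11 percent of them, against 3.86 percent of all genes. Ligand processing and binding had 0 calls in 92 tests (6 at an unadjusted p under 0.05), receptor signalling 1 in 357 (19), B cell targets 1 in 166 (16), plasma cell genes 0 in 79 (6) and T helper partners 0 in 51 (8).

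The gene that fell was Nfkbia, which encodes the NF-kB inhibitor that is itself an NF-kB target, in natural killer cell-like cells. It had 1563 and 2042 CPM in the placebo mice and 870 and 539 CPM in the tamoxifen mice, a log2 fold change of -1.35 ± 0.23 (edgeR, adjusted p = 0.0057), in a class where 0.504 percent of genes were called and 36.3 percent had groups apart. Markers of other cells did not all move with it. The 10 interstitial macrophage markers summed to 544 and 227 CPM with placebo and 35.2 and 36.0 CPM with tamoxifen, with Folr2 and Lyve1 at 0. The 10 neutrophil markers, none at 0, summed to 5866, 14112, 5902 and 1906 CPM (placebo mice first). They were highest and lowest in the same mice as Nfkbia, but near equal in placebo mouse 1 and tamoxifen mouse 1. The 11 B cell markers, none at 0, summed to 176, 52.8, 720 and 98.9 CPM in the same order, highest in tamoxifen mouse 1. The part of these markers in the Nfkbia result was not tested. The gene that rose was Mcl1, an anti-apoptotic BCL2 family gene, in gamma delta T cell-like cells, from 245 and 297 CPM to 615 and 584 CPM (1.19 ± 0.23, adjusted p = 0.040), in a class where 1.94 percent of genes were called and 39.0 percent had groups apart. Neutrophil markers moved with it, since all 10 were detected and summed to 1074 and 169 CPM with placebo against 8956 and 5710 CPM with tamoxifen, and their part in the Mcl1 result was not tested. The Mcl1 call was lost with DESeq2 (adjusted p = 0.269), with the number of cells made equal (0.133) and without tamoxifen mouse 1 (0.0797). With doublets kept or cells assigned singly, edgeR called 0 genes in that class (71 and 80 at an unadjusted p under 0.05). The Nfkbia call held with DESeq2, with the replicate number as a block and with the number of cells made equal. Leaving out a mouse gave log2 fold changes from -1.81 to -1.07. Its results without the count filter and under other doublet, cell and class choices are not given here. None of the 7 members passed the filter on low counts in either of these classes.

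In B cell-like cells, the main receivers, no gene of the lists passed. Among receptor signalling genes, Traf1, an adaptor induced by CD40, had 73.3 and 76.1 CPM with placebo and 126 and 118 CPM with tamoxifen (log2 fold change 0.80 ± 0.17, edgeR adjusted p = 0.833), and the NF-kB inhibitor gene Nfkbie had 90.8 and 81.8 CPM against 113 and 108 CPM (0.43 ± 0.16, adjusted p = 0.968). Furin, the protease that releases BAFF and APRIL, had 22.6 and 24.4 CPM with placebo and 12.9 and 11.3 CPM with tamoxifen (-0.84 ± 0.29, adjusted p = 0.968). All 3 had groups that did not overlap, in a class where 35.6 percent of genes were so.

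Jchain in B cell-like cells had 15.03 and 0 CPM in the placebo mice and 87.8 and 158 CPM in the tamoxifen mice (log2 fold change 3.72 ± 0.63, edgeR adjusted p = 0.388). The log2 fold change ran from 3.12 to 10.9 when a mouse was left out, in fits that leave 1 mouse in a group. The UMIs of Jchain came from few cells. Cells with 10 or more numbered 1 and 0 with placebo and 2 in each tamoxifen mouse, and without them the levels were 5.02, 0, 1.16 and 4.12 CPM.

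In CD4 T cell-like cells, the main source of CD40 ligand, no gene of the lists passed. Pdcd1, the PD-1 receptor gene carried by helper T cells, had 8.70 and 2.15 CPM with placebo and 26.0 and 36.9 CPM with tamoxifen, from 15, 2, 48 and 47 UMIs (log2 fold change 2.32 ± 0.43, edgeR adjusted p = 0.489). In fits that leave 1 mouse in a group, the log2 fold change of Pdcd1 was 3.75 without placebo mouse 1 and 1.86 without placebo mouse 2. It was 2.60 without tamoxifen mouse 1 and 2.05 without tamoxifen mouse 2. In regulatory T cell-like cells it had 83.7 and 64.9 CPM against 135 and 153 CPM (0.92 ± 0.27, adjusted p = 1.00). Cd69, an early activation and retention marker, had 214 and 144 CPM against 128 and 119 CPM in CD4 T cell-like cells. Its log2 fold change was -0.54 ± 0.17 (edgeR, adjusted p = 0.999), and it ran from -0.74 to -0.25 when a mouse was left out. In the same cells Nfkbia had 855 and 1117 CPM against 713 and 637 CPM (-0.54 ± 0.16, edgeR adjusted p = 0.999). Both tamoxifen mice were on the same side of both placebo mice for each of these. In the CD4 and regulatory T cell-like classes 30.0 and 31.3 percent of genes had groups apart. These genes were named for the lowest p in their lists, so their separation follows in part from that choice.

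In classical monocyte-like cells, where the mean APRIL level over the 4 mice was highest, Traf1 had 34.5 and 74.5 CPM with placebo and 143.3 and 142.9 CPM with tamoxifen (log2 fold change 1.39 ± 0.33, edgeR adjusted p = 0.994). Nfkbie and the activation marker Cd83 had the same direction without overlap, at 0.93 ± 0.32 and 0.74 ± 0.23 (adjusted p = 0.994 for each). In this class 32.9 percent of genes had groups apart, and these genes too were named for a low p in their lists. In alveolar fibroblast-like cells, the main source of BAFF, no gene of the lists passed. Tnfsf12 (TWEAK), a ligand of the same family whose gene neighbours Tnfsf13, had 294 and 282 CPM with placebo and 260 and 248 CPM with tamoxifen (-0.19 ± 0.13, adjusted p = 1.00). Larger changes came from low counts: Pdcd1 had 5, 0, 13 and 10 UMIs (placebo mice first, 2.72 ± 0.82) and Bcl2a1b 6, 10, 32 and 10 UMIs (1.90 ± 0.71). The 11 B cell markers in this class summed to 35.3 and 26.9 CPM with placebo and 404 and 94.3 CPM with tamoxifen. Their part in these values was not tested.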

How the data were processed

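Whole-lung cells of 4 mice, 2 per pellet group by title, were measured. The values deposited by the authors are raw UMI counts. The matrices come from Cell Ranger 5.0.0 per the file headers, whereas Cell Ranger 8.0.1 and the mm10 build stand in the submitters' processing notes. Barcodes under 250 genes or over 15% mitochondrial UMIs were dropped, and a Scrublet score over 0.25 marked doublets, which were removed (81 to 160 per mouse). Cells were clustered (scanpy 1.11.5, leidenalg 0.10.2, 2000 variable genes without the 7 members, 40 components, resolution 4) and named from 38 marker lists. Naming thresholds were set after the clusters were seen. The members and lists were chosen with earlier results of these data known.

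Counts were summed per mouse and class, for classes of at least 20 cells in every mouse, and tested with edgeR 4.0.16 (TMM, filterByExpr, quasi-likelihood F test, Benjamini-Hochberg adjustment over all genes of a class, threshold 0.05). The standard error is the fold change over the root of F. The test scripts were checked on simulated data. Named genes were the 7 members, list genes called in a class or, in classes without a call, up to 2 per list with the lowest p in B, CD4 T and the main ligand classes, and the 3 genes nearest each member by Pearson correlation of log2(CPM + 1) class means among genes of at least 10 CPM in a class. Each mouse was left out in turn, and DESeq2 1.42.0, no count filter, a replicate block, other doublet, cell and class choices and equal cell numbers were tried. Pairs were described where a class holds at least 5% of a gene's UMIs, a limit set after the levels were seen. Intervals are Clopper-Pearson at 95%, and for a share of 0 the limit is 3 counts.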

Additional observations from a re-analysis of the deposited data

How the results depend on the processing

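With 2 mice a group and few UMIs per member, only large changes could pass, and values within a class rest on clusters named by markers. Over 47 single-gene results and 433 alternatives, 396 kept direction and side of the threshold, 21 turned direction (15 of them by leaving out a mouse), 12 passed newly and 4 no longer passed, and 34 results never turned. The number of members called within a class was 0 and became 1 without the count filter (Cd40lg in gamma delta T cell-like cells). The number called over all kept cells was 0, though not in every fit that left out a mouse. The number of list genes called was 2, against 1 with DESeq2 and from 5 to 15 when a mouse was left out: 15 without placebo mouse 1, 6 without placebo mouse 2, 5 without tamoxifen mouse 1 and 8 without tamoxifen mouse 2. The cause was not tested.

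The labels give both groups the replicate numbers 1 and 2, but nothing ties equal numbers to a shared litter or day. With the replicate number as a block, 10 list genes and 0 members were called. Calls over all genes changed with the block too. They were 191 up and 46 down of 9719 genes in mesothelial-like cells, against 18 up and 0 down without it. In gamma delta T cell-like cells they were 7 up of 1652 genes, against 32 up without it. Deviations of equal-numbered mice correlated from -0.19 (neutrophil-like) to 0.56 (erythroid-like) over genes, and at 0.21 over all kept cells.

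Log2 fold changes that turned sign were Cd40 in B cell-like cells with DESeq2 (-0.00013), Cd40 over all kept cells without B and plasma cell-like cells (-0.17), Cd40lg with cells assigned singly in CD8 (-0.20) and regulatory T cell-like cells (0.13), Tnfrsf13b in B cell-like cells with equal cells per mouse (-0.13), and Tnfsf13 in interstitial macrophage-like cells without the Prg4 cluster (-0.34), an alternative chosen after seeing the data. Leaving out a mouse gave ranges across 0 for Cd40 in B cell-like (-0.10 to 0.13), alveolar fibroblast-like (-0.33 to 0.071), interstitial macrophage-like (-0.11 to 1.04) and all kept cells (-0.15 to 0.76), for Cd40lg in CD4 T cell-like (-0.41 to 0.026), CD8 T cell-like (-0.51 to 0.66) and all kept cells (-0.12 to 0.37), for Tnfrsf13b in type 1 dendritic cell-like cells (-0.053 to 0.37), for Tnfrsf17 over all kept cells (-0.67 to 1.41) and for Tnfsf13b in alveolar fibroblast-like cells (-0.28 to 0.20). The difference in B cell-like share kept its sign in all 4 alternatives.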
